A study of Mus musculus with 4 samples.

Results

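DKO MEFs, mouse embryonic fibroblasts that lack both cyclin G1 (CycG1, gene Ccng1) and cyclin G2 (CycG2, gene Ccng2), were compared with WT MEFs that carry both genes. The comparison holds 1 array of DKO MEFs, genotype CycG1-/-CycG2-/-, and 1 array of their WT, genotype CycG1+/+CycG2+/+. Members were all probes, control spots aside, with a signal well above background on either array or both, which gave 29192 of the 39429 probes on the array (74.0%), standing for 23517 of 31709 gene names. Both cultures came from C57BL/6J embryos and were in logarithmic growth, and the labels name no agent given to them. In the knockout, a neomycin cassette had replaced all exons of Ccng1 that hold its coding sequence; which part of Ccng2 was removed is not given in the sources used here. The number of embryos behind each culture and its passage are not given there either. Another pair of arrays on the same slide, labelled G2KO (CycG2-/-) and CycG2+/+ (the WT of that pair), served only to show how each gene read in other MEF cultures. Each genotype of the DKO comparison has 1 array, so no ratio below has a replicate check and no test between genotypes was made.

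Cyclin G1 and cyclin G2 are unconventional cyclins that bind the B' subunits of protein phosphatase 2A (PP2A). Ccng1 is a transcriptional target of p53, and its protein acts with PP2A on MDM2, the ubiquitin ligase that limits p53. MEFs are a mixed mesenchymal culture grown from dissociated embryos, and the cells that prevail differ with the part of the embryo, the passage and the culture.

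A level is the signal of a probe divided by the 75th percentile of its array, and a log2 ratio is DKO over its WT. Signals of different probes are not comparable, so levels are set against each other only within a gene. A probe too dim on 1 array was given the lowest reliable signal of that array, or its own where higher, and its ratio is a limit, written as "at least" for folds and "at most" for log2 ratios below 0. Of the members, 24877 were measured on both arrays, 3584 were dim on the WT array and 731 on the DKO array. A ratio or limit was obtained for 28384 members, and 808 others had none because the limit of their ratio lay on the wrong side of 1. A gene dim on the WT array could thus only come out higher, and one dim on the DKO array only lower, so gene lists with many such members are also given over the genes measured on both arrays. The arrays gave well above background signals at 72.2% of probes for DKO and 65.0% for its WT. A level under 0.0102 on the WT array or 0.00728 on the DKO array lay below every signal well above background there. How precise any ratio is depends on the number of arrays, which is 1 on each side.

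The targeted genes were read first. The probe of Ccng1 lies on chromosome 11 of mm9, 40562427 to 40562486, and that of Ccng2 on chromosome 5, 93705131 to 93705190. The beginnings of both probes are shown because every statement on the targeted genes rests on these sequences; each line gives the first 30 of 60 bases.
Ccng1: agaaataaaattgctgagtttatctgcaaa
Ccng2: cattgatgacttactttttattagtaagtc
Ccng1 had a level of 0.00682 on the DKO array, not well above background, and of 1.66 on its WT, which made it at least 228-fold lower. It was well above background on both other arrays, with levels of 1.97 and 9.43 on those labelled G2KO and CycG2+/+. The transcript was therefore seen on each array except that of DKO. Ccng2 had levels of 0.0616 on the DKO array and 0.0804 on its WT (log2 ratio -0.38), and of 0.0907 and 0.104 on the arrays labelled G2KO and CycG2+/+. Its signal differed little across the 4 arrays, so the Ccng2 probe does not check any label. On the same slide, the WT of the DKO comparison was closest to the array labelled G2KO, with 2.18% of probes past 4-fold, whereas 7.19% were past it between the 2 arrays labelled WT. Xist, the RNA that coats the inactive X chromosome, was well above background only on the array labelled CycG2+/+, at a level of 1.13, and the Y-linked genes Eif2s3y, Ddx3y and Uty were dim on that array alone. The paper lists Xist as higher and Aspn (asporin) as lower in G2KO MEFs than in their WT. Here Aspn had levels of 3.38 on the array labelled G2KO and 0.00527 on that labelled CycG2+/+. Both genes thus read opposite to the labels of that pair. Whether the labels are exchanged was not tested, so the arrays of that pair set no direction here. The one labelled CycG2+/+ may not be a second WT.

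Over 22848 genes with a ratio, taking the brightest probe of each, the median log2 ratio was 0.03 and the interquartile range ran from -0.40 to 0.45. At least 4-fold higher in DKO were 926 genes, which is the background of 4.05% against which the counts of gene lists below are read. At least 4-fold lower were 917 genes, a background of 4.01%, and past 4-fold either way were 8.07% of genes. Over the 19962 genes measured on both arrays, the background was 2.75% higher and 2.98% lower. Counted by probes, 3.94% were higher and 3.99% lower past 4-fold, 7.92% in all. Differences past 100-fold were found for 48 genes that were higher and 58 that were lower. The spread of log2 ratios over probes measured on both arrays was 1.05 (SD) for DKO against its WT and 1.03 between the arrays labelled WT. It was 0.57 for the WT array against the array labelled G2KO. When probes measured on both arrays were split into 5 bins by mean level, 4-fold differences were most frequent in the bin next to the dimmest, at 9.65% of probes, and least frequent in the brightest, at 1.65%.

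The largest ratios were those of Ptgis and Krt18, which read low on all 3 other arrays. Ptgis, which makes prostacyclin, had a level of 49.9 in DKO MEFs and 0.0183 in their WT, the largest ratio among genes measured on both arrays, at 2729-fold. Krt18, a keratin of simple epithelia, had a level of 24.6 in DKO and was not well above background in its WT, at least 2404-fold higher. On the other 2 arrays Ptgis did not pass 0.0138 and Krt18 did not pass 0.0338, so the DKO array stood apart from all 3 others for both. Msln, the mesothelial surface protein mesothelin, had levels of 99.8 in DKO and 0.490 in WT, and of 0.661 and 1.52 on the other arrays. Gata4, a transcription factor of the septum transversum and heart, had levels of 5.02 and 0.0139. The detoxifying enzymes Cyp2s1 and Pon3 had levels of 7.31 and 5.28 in DKO against 0.0250 and 0.0230 in its WT. Further genes measured on both arrays were Acp5 (log2 ratio 7.84), Cpz (7.76), Spon2 (7.66) and Plac8 (7.47), and the tetraspanin Upk1b, the alarmin Il33 and the microsomal glutathione transferase Mgst1 were at least 949-fold, 682-fold and 543-fold higher. Mgst1 had a level of 2.54 on the array labelled CycG2+/+ as well, where Msln and Spon2 (0.288) were also well above background.

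The genes with the lowest ratios were bright on the WT array and read near background in DKO. Kctd15, a negative regulator of neural crest formation, had a level of 0.00829 in DKO MEFs and of 7.30 in their WT, the lowest ratio among named genes measured on both arrays, at 880-fold. Dkk3, a member of the Dickkopf family, had levels of 0.0109 and 7.56. Of the 4 arrays, that of DKO alone had a level under 1 for both of these genes. Lrrc15, a membrane protein of matrix-producing fibroblasts, was 632-fold lower in DKO than in its WT, but the array labelled CycG2+/+ was low too, at 0.123. Kctd12 and the GDNF family receptor Gfra2 had log2 ratios of -8.15 and -7.91. Among genes dim on the DKO array, the cadherin Cdh13 was at least 1957-fold lower, the retinoic acid binding protein Crabp1 at least 1866-fold and the water channel Aqp1 at least 1642-fold. Probes of a gene did not always tell the same: Tenm4 had a log2 ratio of -8.45 by its brightest probe and of -0.31 by another.

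Several mesothelial genes were higher in DKO, and several genes of head mesenchyme were lower. Of 13 mesothelial marker genes measured on both arrays, 5 were at least 4-fold higher and 1 at least 4-fold lower, with a median log2 ratio of 1.32. Another 10 were dim on the WT array and could only come out higher; with these and 1 gene dim on the DKO array, 15 of 24 were at least 4-fold higher and 2 lower, with a median of 4.27. The list includes keratins, uroplakins and the factors Wt1, Gata4 and Gata6. Gata6 had a level of 4.88 in DKO and of 0.00541 in its WT, Gpm6a of 1.42 and 0.00267, and Bnc1 of 1.46 and 0.0780. Podxl and Rspo1 were the exceptions, with log2 ratios of at most -3.07 and of -2.82. In RNA of whole cultures, fewer cells of a type and less RNA per cell cannot be told apart. Of 24 epithelial keratin, claudin and junction genes, 10 were higher and 1 lower past 4-fold, and of the 15 measured on both arrays 4 were higher and 0 lower. Of the 10, the keratins Krt8, Krt18 and Krt19 and the cadherin Cdh1 stand on both lists. Cgn (cingulin, a tight junction protein) had levels of 1.14 and 0.0117, F11r (junctional adhesion molecule A) of 11.4 and 0.201, and Esrp2, an epithelial splicing factor, was at least 56.0-fold higher. Cldn1 (claudin 1) went the other way and was at least 56.5-fold lower.

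Of 13 craniofacial mesenchyme genes measured on both arrays, 4 were at least 4-fold lower in DKO and 1 was higher, with a median log2 ratio of -0.81. Another 10 were dim on the DKO array and could only come out lower; with these and 1 gene dim on the WT array, 13 of 24 were at least 4-fold lower, with a median of -2.52. Taken against the array labelled CycG2+/+, the median was -0.66. Alx1, a homeobox factor of the facial primordia, had a level of 0.00184 on the DKO array and of 2.11 on its WT. Tfap2a, a neural crest factor, had 0.00281 and 1.42, and Lhx8 had 0.00155 and 0.875. The distal-less factors Dlx1, Dlx2 and Dlx5 were lower as well, with log2 ratios of at most -6.35, of -4.61 and of at most -4.58. Each of these was detected on the array labelled G2KO, while Alx1 and Lhx8 were dim on the array labelled CycG2+/+. Six2 was higher in DKO, at 1.99 against 0.158. Of 17 neural and glial marker genes, 6 were at least 4-fold lower and 0 higher (4 and 0 of the 14 measured on both arrays), with Slc1a3 (a glutamate transporter of glia) at least 363-fold lower and Ptprz1 at 0.0186 against 1.61.

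Position along the body axis was read from the Hox genes, whose clusters are expressed in the trunk and not in most of the face. Of all 39 Hox genes on the array, 27 were well above background on the DKO array, 8 on its WT, 8 on the array labelled G2KO and 11 on that labelled CycG2+/+. Over all probes, the shares well above background were 72.2%, 65.0%, 68.2% and 68.5% in the same order. The lowest signal that counted was a level of 0.00728 on the DKO array and 0.0102 on its WT. Hoxd3 counted for DKO at 0.00956. The 8 measured on both DKO and WT arrays had 4 at least 4-fold higher and 0 at least 4-fold lower, and Hoxc12 was the one below 0, at -0.75. Another 18 were dim on the WT array and could only come out higher; with these, 16 of 26 were at least 4-fold higher. The Hoxb genes had 8 of 8 at least 4-fold higher with a median log2 ratio of 7.84, but 6 of these were limits. Hoxb6 was measured on both arrays, at 3.91 against 0.0162, and so was Hoxb3, at 0.254 against 0.0402. Hoxb7, Hoxb4 and Hoxb9 had levels of 3.88, 3.05 and 2.67 where none of the 3 other arrays was well above background. The Hoxa genes had 5 of 9 past 4-fold (2 of the 5 measured on both arrays). Hoxa3 had a level of 1.05 against 0.00819 and Hoxa5 of 0.144 against 0.00311. The Hoxd genes had 2 of 3 past 4-fold and the Hoxc genes 1 of 6, Hoxc6, at 0.458 against 0.00326. The ratios of all 3 Hoxd genes and of Hoxc6 were limits. Of 19 T-box and Gata genes, 6 were higher and 2 lower past 4-fold. Over the 14 measured on both arrays, 2 were higher and 2 lower, with a median log2 ratio of 0.14. Another 4 were dim on the WT array and could only come out higher. Tbx5, a forelimb and heart factor, had levels of 0.483 and 0.00284, and Hand2 of 0.503 and 0.0149. Tbx20 and Eomes were lower, with log2 ratios of -3.15 and -3.78.

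Vim, Col1a1 and Col1a2 read alike on both sides, whereas 22 of 24 fibroblast and mesenchyme marker genes were lower in DKO to some extent. Over all genes with a ratio, 10858 of 22848 were lower to some extent. Vim (vimentin) had levels of 60.3 in DKO and 62.3 in its WT, Col1a1 of 40.9 and 41.8, and Col1a2 of 142 and 169. All 24 fibroblast and mesenchyme marker genes were well above background on both arrays. Within that list, 9 genes were at least 4-fold lower in DKO and 1 higher, with a median log2 ratio of -1.32. Pdgfra, the receptor that marks most embryonic fibroblasts, had levels of 0.0295 and 5.20, and Postn (periostin) of 0.116 and 21.6. Thy1 had 3.41 and 61.4. Dcn, the proteoglycan decorin, was the one that was higher, at 48.8 against 2.94. The array labelled CycG2+/+ had low levels of Pdgfra (0.00223), Postn (0.565) and Thy1 (0.460) too, so that low readings of these genes were not limited to DKO. Against that array the median of the list was 0.27.

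Markers of other lineages were read in the same way. The smooth muscle contractile genes had 5 of 17 at least 4-fold lower and 0 higher, among them Tagln, at 11.6 against 132, and Acta2, at 29.4 against 133. Cartilage and bone marker genes had 4 of 11 lower and 0 higher, with Col2a1 at 0.0465 against 6.52 and Sox9 at 0.223 against 1.39. Skeletal muscle marker genes had 1 of 8 lower (Acta1), and germ cell marker genes had 0 of 5 past 4-fold either way. Adipocyte marker genes had 1 of 8 higher (Retn) and 1 lower (Dgat2). Endothelial marker genes had 1 of 12 higher, Ecscr, and 0 lower, and Pecam1 had levels of 0.0755 and 0.0819. Macrophage and blood cell marker genes had 3 of 13 higher, Mcpt8, Kit and Cd14, and 0 lower. Over the genes measured on both arrays, the adipocyte, endothelial and macrophage lists had 0 of 5, 0 of 9 and 1 of 9 higher. These cell type readings describe cultures, and their part in the ratios of other genes was not tested.

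Genes that p53 activates were higher in DKO as a list. Of 33 p53 target genes, 13 were at least 4-fold higher and 0 at least 4-fold lower, and 30 were higher to any extent, with a median log2 ratio of 1.59. Of the 31 measured on both arrays, 12 were at least 4-fold higher. Over all genes with a ratio, 11990 of 22848 were higher to any extent. Psrc1, a microtubule regulator, had levels of 3.90 and 0.0302, and Perp, an effector of apoptosis, of 34.9 and 0.639. Eda2r was at least 20.3-fold higher. Among the feedback genes, Mdm2 had 32.4 and 6.12 and Trp53inp1 had 4.33 and 0.256. Cdkn1a, the CDK inhibitor p21, had 4.98 and 0.570, and the apoptosis genes Bax, Fas and Bbc3 had log2 ratios of 2.18, 2.45 and 1.55. Gadd45a, Sesn1 and Ddb2 were the 3 members below 0, with log2 ratios of -0.95, -0.45 and -0.41. Trp53 itself had levels of 0.864 and 0.567. The array labelled CycG2+/+ had a Cdkn1a level of 8.18 and a Bax level of 6.23, both above those of DKO. Taken against that array, the median of the list was 0.60.

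The cell cycle machinery differed little. None of 40 DNA replication and G1/S genes was past 4-fold, with a median log2 ratio of -0.29 and extremes of -0.99 (Rrm2) and 1.12 (E2f2). None of 37 mitosis and spindle genes was past it either, with a median of 0.32. Plk1 had levels of 1.54 in DKO and 1.43 in its WT, but 9.54 and 14.4 on the other arrays. Against the array labelled CycG2+/+, the mitosis median became -2.64, so its value depends on the array it is taken against. Of 38 DNA damage signalling and repair genes, 0 were past 4-fold in either direction, with Chek2 at a log2 ratio of 0.96 and Atm at -0.37. Beyond Ccng1, the cyclin genes past 4-fold were Ccno (-4.84), Cables1 (-3.45) and Ccny (2.05), of 23 with a ratio. Ccne1 had levels of 1.49 and 4.02. Of 8 CDK inhibitor genes, Cdkn1a was higher and Cdkn1c (p57) and Cdkn2a were lower. Cdkn2a had levels of 5.07 in DKO and 23.2 in its WT, and of 24.2 and 0.0157 on the others. Of 16 PP2A subunit genes, the regulatory subunit Ppp2r2b was higher, at 0.468 against 0.00208, and 0 were lower. Ppp2r5c, which encodes the B'γ partner of the G cyclins, had levels of 0.823 and 1.85, a difference that stayed under 4-fold.

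Imprinted genes, which are expressed from 1 parental allele and of which several form a network of embryonic growth genes, were lower more often than higher. Of 24 with a ratio, 9 were at least 4-fold lower in DKO and 3 higher, with a median log2 ratio of -0.96. The non-coding RNA H19 had a level of 0.0186 in DKO and a log2 ratio of -7.75, and Meg3 had levels of 0.0109 and 3.56. Dlk1, neighbour of Meg3 on chromosome 12, had 0.0184 and 3.52. The amino acid transporter Slc38a4 had 0.0112 and 3.14, and Plagl1, a zinc finger factor, 0.0349 and 14.6. H19, Meg3, Slc38a4 and Plagl1 had levels of at least 0.426 on both other arrays. The growth inhibitor Cdkn1c, the growth factor Igf2 and Mest had log2 ratios of -5.05, -3.18 and -4.82. These read low on the array labelled CycG2+/+ too, at 0.0282, 0.0227 and 0.0605, and Dlk1 was at 0.109 there. Peg3, Dcn and Ndn were higher, at 1.01 against 0.00334, 48.8 against 2.94 and 0.547 against 0.0669. On the array labelled CycG2+/+, Ndn was above DKO, at 1.22, while Peg3 and Dcn read 0.00254 and 0.0720. The other probes of Plagl1 ranged from -8.89 to -0.09. In the IGF axis, 4 of 16 genes were lower and 1 higher: Igfbp2 had 0.0854 and 13.4, Htra1 5.79 and 45.7, and Igfbp3 was at least 20.7-fold higher.

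Some genes of elastic fibres and of other matrix were lower in DKO. Of 22 elastic fibre and fibulin genes, 6 were at least 4-fold lower and 0 higher. Fbn2 (fibrillin 2, a fetal microfibril protein) had levels of 0.0264 and 4.22, and Mfap4 of 0.0422 and 2.77. Both were also low on the array labelled CycG2+/+, at 0.0250 and 0.0223. Of 31 collagen genes, 6 were lower and 1 higher past 4-fold. Col12a1 had 1.26 and 18.4, Col8a1 0.534 and 4.26, and Col15a1, the one that was higher, 0.178 and 0.0176. Of the fibrillar collagens, Col2a1 was lower past 4-fold, whereas Col3a1, Col5a1 and Col11a1 had log2 ratios of -1.74, -0.62 and -1.08. Small leucine-rich proteoglycan genes had 4 of 9 lower and 1 higher, with Ogn at 1.59 against 23.1 and Podn at 0.224 against 3.01. Both read lower still on the array labelled CycG2+/+, at 0.203 and 0.0451. Against that array, the median of this list turned from -1.63 to 2.31, that of the collagen genes from -0.57 to 0.69 and that of the elastic fibre and fibulin genes from -0.68 to 0.49. Basement membrane and integrin genes had 9 of 30 lower and 2 higher. Lower were the integrins Itga8 (at most -8.48), Itga9 (-4.09), Itga1 (-3.94) and Itga11 (-3.55), and higher were Itgb4 and Lama5, which belong to epithelial basement membrane contacts, at 0.767 against 0.0774 and 2.57 against 0.381. Itga6, the partner of Itgb4 in those contacts, was lower, at 2.40 against 13.0. Matrix protease and inhibitor genes had 3 of 31 higher and 3 lower, with Mmp23 at 5.34 against 0.0477 and Serpinf1 at 1.86 against 77.8.

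Signalling genes were mixed. Of 36 Wnt pathway genes, 9 were lower and 2 higher. The lower ones included the secreted modulators Sfrp2 (0.0706 against 7.24), Dkk2 (0.477 against 14.6) and Rspo2 (0.00425 against 1.32), and the higher ones Rspo3, at 2.39 against 0.0857, and Wnt9a. Sfrp2, Dkk2 and Rspo2 were also lower on the array labelled CycG2+/+ than on the WT array, at 0.0172, 0.149 and 0.00891, and against that array the median of the list turned from -0.60 to 0.46. Of 37 BMP and TGF-beta pathway genes, 6 were lower and 3 higher. Bmp4 had 5.40 and 22.8, Chrdl1, a BMP antagonist, was at least 414-fold lower, and Gdf6 was at least 59.9-fold higher. Of 26 FGF and PDGF pathway genes, 7 were lower and 2 higher, with Pdgfrb at 0.953 against 12.5, Fgf10 at 0.238 against 2.49, and Fgf18, the ligand that was higher, at 4.38 against 0.389. The hedgehog and Notch pathway genes had 3 of 21 lower and 2 higher, among the former the hedgehog target Hhip, at least 26.5-fold. Retinoic acid genes went both ways. Aldh1a1, which makes retinoic acid, had 16.9 and 0.135, while the sister enzyme Aldh1a3 was at least 83.9-fold lower and Cyp26b1, which degrades retinoic acid, at least 303-fold lower. Of the 20 genes of this list, 3 were higher and 4 lower (2 and 1 of the 14 measured on both arrays). Aldh1a1 had a level of 18.9 on the array labelled CycG2+/+ and Cyp26b1 one of 15.4, both above DKO.

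Interferon-stimulated genes went both ways. Of 32 interferon-stimulated genes, 8 were higher and 4 lower past 4-fold, with a median log2 ratio of 0.15. Over the 27 measured on both arrays, 4 were higher and 3 lower, with a median of -0.33. The class I antigen genes H2-K1 (12.6 against 1.70) and H2-D1 (8.22 against 1.88), and Tap1 and Psmb8, which supply peptides to class I molecules, were higher. So were Psmb9, Ifi47, Oas1a and Oas2. Tap1, Psmb9, Oas1a and Oas2 were dim on the WT array and could only come out higher. Another probe of Oas1a had a log2 ratio of 0.18. Lower were Ifit1 (-2.03), Usp18 (-2.14), Gbp3 (-3.46) and Xaf1, at least 113-fold. Of 24 chemokine and cytokine genes, 6 were higher and 4 lower (4 and 3 of the 20 measured on both arrays). Ccl2 had 117 and 9.03, Ccl7 39.8 and 2.27 and Cxcl12 92.4 and 19.9. The neutrophil attractants Cxcl1 and Cxcl5 were lower, with Cxcl5 at 0.0114 against 1.52. Cxcl1 and Cxcl5 were dim on the array labelled CycG2+/+ too, at 0.00195 and 0.00144. Of 22 complement genes, 3 were higher and 4 lower. C3, the central component of the cascade, had 2.66 and 0.489, while Cd59a, which blocks the membrane attack complex, had 0.00909 and 1.79. Among 24 immediate early genes, which growth factors switch on within minutes, 4 were lower and 0 higher: Jun (2.35 against 13.7), Dusp1, Egr2 and Dusp2.

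Metabolic gene lists differed in how many members were past 4-fold. Past it were 0 of 50 oxidative phosphorylation genes, 0 of 39 ribosomal protein genes and 0 of 28 cholesterol and fatty acid synthesis genes, with medians of 0.13, -0.01 and -0.41. Over all genes the share was 8.07%, but it was 1.65% of probes in the brightest of the 5 bins. The median levels of the oxidative phosphorylation and ribosomal protein lists lay in that bin. Of 29 glycolysis and hypoxia genes, 1 was lower, Adm (adrenomedullin), at 0.219 against 2.85. The ribosomal protein genes ranged from -0.31 to 0.46, the narrowest range of the 3 lists. Of 38 glutathione and oxidative stress genes, 4 were higher, Mgst1, Gstm6, Gstm2 and Gpx7, and Gstt1 was lower. Members of the Gstm family are similar in sequence, so their probes may share signal. Among 16 prostanoid genes, Ptgis was higher (6.25%), and Ptgs1 (cyclooxygenase 1) and the receptor Ptgfr were lower (12.5%, against 4.01% of all genes), with Ptgs1 at 1.74 against 14.0. The sex-linked marker genes were alike, with Eif2s3y at 1.81 and 1.95, and Xist was dim on both arrays of the comparison.

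Genes that lie next to each other and differed together were listed as runs of at least 3 neighbours past 4-fold in the same direction. There were 39 runs, 24 higher and 15 lower, which held 129 of 22660 placed genes. Genes were counted by name, so several entries of a run may be transcripts of 1 locus, and the counts are not all of separate genes. The Hoxa run holds Hoxa3 (probe start 52119087) and an Ensembl transcript (52119107), and the run of Mtss2 and Il34 spans 0.976 kb. Besides Hoxb and Hoxa, a run of 5 higher genes on chromosome 17 (mm9 34297109 to 34353175) consisted of H2-DMb1, Psmb9, Tap1, Psmb8 and Tap2, the antigen processing genes of the major histocompatibility complex. Tap2 had levels of 3.13 in DKO and 0.146 in its WT. On chromosome 14, the mast cell proteases Mcpt2, Mcpt4 and Mcpt8 were higher, with Mcpt4 at 0.893 against 0.00547. On chromosome 13, Serpinb6b and Serpinb9, and on another stretch Ctla2a and Ctla2b, protease inhibitors, were higher, at 3.99 against 0.153 for Serpinb6b and with a log2 ratio of 3.40 for Ctla2a. Among the lower runs were Begain, Dlk1 and Meg3 on chromosome 12, Aspn, Omd and Ogn on chromosome 13, and Cxcl5 with Ppbp on chromosome 5. On the array labelled CycG2+/+, Aspn, Omd, Cxcl5 and Ppbp read low too, at 0.00527, 0.0214, 0.00144 and 0.00230, whereas Meg3 read 0.857. The late cornified envelope genes, Lce1e to Lce1i, on chromosome 3 were lower as well, with Lce1g at 0.0124 against 1.59. The Lce1, Mcpt and Ctla2 genes are families of similar sequence, and probes of such neighbours may bind the same transcripts.

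The ratios also differed by whole chromosome. For 11775 genes measured on both arrays with a mean log2 level of at least -2 over the 4 arrays, the median log2 ratio was -0.07, and it was 0.40 for the 566 genes of chromosome 6. Of these, 78.3% lay above the median of all genes. Chromosome 11 (949 genes) had a median of 0.21, chromosome 19 of 0.22 and chromosome 15 of 0.16. On the other side were chromosome 9 at -0.33, chromosome 1 at -0.32, chromosome 5 at -0.31 and chromosome 12 at -0.29. The shift held along the length of these chromosomes: when the genes were put in order and cut into 4 segments of equal gene number, the segments of chromosome 6 had medians from 0.32 to 0.51, and those of chromosome 9 from -0.36 to -0.31. All 4 segments lay above the median of all genes on 7 of 20 chromosomes and below it on 6. Chromosome 4 was uneven, with its first segment at 0.23 and the others between -0.30 and -0.18. The interquartile range of single genes on chromosome 6 ran from -0.01 to 0.79. Read for each array against the mean of the 4, chromosome 6 genes stood at 0.16 on DKO and 0.26 on the array labelled CycG2+/+, and at -0.20 on the WT array and on the array labelled G2KO alike. For chromosome 9 the order was different: DKO was at -0.22, its WT and the array labelled G2KO at 0.13 and the fourth array at -0.02. The number of chromosome copies in these cultures was not measured.

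The promoters of genes with large ratios were poorer in CpG. RefSeq promoters of 300 bases around the transcription start (GRCm38.p6) were matched for 13186 of the genes with a ratio. The median number of CG dinucleotides was 9 in 571 genes at least 4-fold higher, 14 in 585 genes at least 4-fold lower and 18 in 12030 genes under 4-fold. The letters TATAAA, searched on both strands, were found in 11.2% of the higher and 11.97% of the lower genes, against 9.43% of genes under 4-fold and 14.1% of all 27025 promoters of that table. Shown are the promoters of the 2 highest and the 2 lowest named genes measured on both arrays that the table holds, with CG in capitals, since these are the genes whose signals were furthest apart. They lie on GRCm38.p6 at chr7:25816476-25816775 (Cyp2s1), chr6:5256184-5256483 (Pon3), chr7:34652883-34653182 (Kctd15) and chr16:30283205-30283504 (Lrrc15), each on the minus strand.
Cyp2s1: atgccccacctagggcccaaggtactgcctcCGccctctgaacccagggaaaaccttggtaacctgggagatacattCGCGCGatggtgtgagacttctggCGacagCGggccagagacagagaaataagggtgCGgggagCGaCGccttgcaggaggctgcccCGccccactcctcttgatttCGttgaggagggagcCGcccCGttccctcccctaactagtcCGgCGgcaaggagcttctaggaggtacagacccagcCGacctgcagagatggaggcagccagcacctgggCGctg
Pon3: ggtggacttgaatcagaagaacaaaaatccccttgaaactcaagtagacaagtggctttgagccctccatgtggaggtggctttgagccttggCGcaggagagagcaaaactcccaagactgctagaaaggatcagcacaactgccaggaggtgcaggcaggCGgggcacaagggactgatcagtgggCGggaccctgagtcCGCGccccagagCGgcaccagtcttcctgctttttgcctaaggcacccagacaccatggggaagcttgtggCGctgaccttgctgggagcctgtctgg
Kctd15: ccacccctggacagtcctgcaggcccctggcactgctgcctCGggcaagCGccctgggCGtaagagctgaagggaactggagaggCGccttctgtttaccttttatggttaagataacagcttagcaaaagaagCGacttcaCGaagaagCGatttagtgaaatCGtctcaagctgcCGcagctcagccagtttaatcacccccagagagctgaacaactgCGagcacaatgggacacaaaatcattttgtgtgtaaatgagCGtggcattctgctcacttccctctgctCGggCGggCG
Lrrc15: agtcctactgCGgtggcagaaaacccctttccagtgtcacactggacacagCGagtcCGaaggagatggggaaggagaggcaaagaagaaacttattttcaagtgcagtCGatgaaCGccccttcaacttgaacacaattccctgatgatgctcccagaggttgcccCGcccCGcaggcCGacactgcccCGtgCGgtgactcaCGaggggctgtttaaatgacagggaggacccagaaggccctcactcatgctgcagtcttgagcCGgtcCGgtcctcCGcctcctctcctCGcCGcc
These hold 17, 7, 14 and 16 CG dinucleotides in the order shown, and TATAAA is in none of the 4. A match or its absence describes these letters only.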

How the data were processed

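Cy3-labelled cRNA made from total RNA was read on Agilent Whole Mouse Genome arrays, 4 on 1 slide, with 1 array per genotype. The labels describe single-color arrays throughout, whereas the methods describe dye swaps for G2KO MEFs. The authors deposited signal intensity values from Feature Extraction, whose version is 10.5.1.1 per the labels and 10.7.3.1 per the file headers; these correct background within an array and are not scaled between arrays. The series' value table repeats these intensities.

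Control spots and 118 (DKO) or 120 (WT) spots marked as outliers were left out. Each intensity was divided by its array's 75th percentile (1784 for DKO, 1882 for its WT) taken as log2 and averaged over spots of a probe. No spot was saturated. The SD between spots of a probe well above background had a median of 0.0746 for DKO and 0.0581 for its WT on the log2 scale. A gene was read from its probe of highest mean level on the 4 arrays. Of 32334 probes with a RefSeq transcript, 26055 were named through a table of GRCm38.p6; probe coordinates are those of the files, on mm9.

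The named genes were Ccng1, Ccng2, the 10 genes with the highest and the 10 with the lowest ratio measured on both arrays, and the 5 with the largest limits either way; genes of 47 lists were named by size or role. Some genes that these rules pick are not reported here. The members and lists were chosen with earlier results of these data known, and the chromosome and promoter summaries after the ratios were seen. With 1 array per side, called means past 4-fold. The calculation was tested on simulated data. Alternatives included limma's normexp with an offset of 50 (version 3.58.1, R 4.3.3), quantile normalization, other scalings, filters and thresholds, and the other array labelled WT. Ratios were computed in Python 3.11.15 (pandas 2.3.3, numpy 2.4.6).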

Additional observations from a re-analysis of the deposited data

How the results depend on the processing

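Probes at least 4-fold higher and lower numbered 1117 and 1132. With normexp background correction they were 629 and 561, and the median log2 ratio of all probes moved from 0.02 to 0.13; the Hoxb and Hoxd medians became 5.61 and 0.996. With only probes well above background on both arrays they were 659 and 717, and list medians became 1.32 (mesothelial), -0.81 (craniofacial mesenchyme), -1.82 (adipocyte), 1.01 (Hoxa), 5.29 (Hoxb) and -0.75 (Hoxc), which rest on fewer genes. Without a filter, 1790 were higher, and the Hoxb and Hoxd medians were 8.92 and 0.95. A threshold of 2-fold gave 3008 and 2765 probes, and one of 10-fold gave 442 and 512.

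The array labelled CycG2+/+ may not be a second WT, so values against it, or against an average that holds it, may not compare DKO with WT. List medians were not taken against the array labelled G2KO. Against the array labelled CycG2+/+, 1676 probes were higher, 60.4% of those past 4-fold. Medians became -2.64 (mitosis and spindle), 5.81 (mesothelial), 0.27 (fibroblast and mesenchyme), -0.66 (craniofacial mesenchyme), 0.69 (collagen), 2.31 (small leucine-rich proteoglycan), 0.49 (elastic fibre), 0.46 (Wnt), 1.72 (chemokine and cytokine), 1.25 (prostanoid) and 4.85 (sex-linked), so the fibroblast, proteoglycan, collagen, elastic fibre and Wnt lists turned from lower to higher. Against the average of both arrays labelled WT, 704 probes were lower and 65.7% of those past 4-fold were higher. Medians became -1.14 (mitosis and spindle), 5.47 (mesothelial), -1.46 (craniofacial mesenchyme), 0.063 (cartilage and bone), 0.000637 (small leucine-rich proteoglycan) and 4.11 (sex-linked). The p53 target median was 0.60 against the first and 1.1 against the second. Apart from the choice of array, the cause of these moves was not tested.

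Under quantile normalization, other scalings, the unscaled table, and with outlier spots kept, all counts of probes stayed within 1.5 times. Each list median moved by less than the SD between the arrays labelled WT (1.03). This SD is a spread over single probes and not over list medians, so it is a wide limit and does not show that a median stayed the same. That SD may span a difference of genotype, since the array labelled CycG2+/+ may not be a second WT. The chromosome medians, set against that of all genes, were recomputed with normexp, quantile normalization, scaling to the median and no filter on level, which were chosen after seeing the data: chromosome 6 stayed between 0.32 and 0.46, and chromosome 9 between -0.27 and -0.22. No paired analysis was possible because each genotype has 1 array.

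Depth is signal over background here: 3584 members were dim on the WT array and 731 on the DKO array, and their ratios are limits. With 1 culture per genotype, genotype, embryo, passage and culture cannot be told apart. The arrays labelled WT differed from each other past 4-fold at 7.19% of probes, against 7.92% for DKO and its WT. That 7.19% may hold a difference of genotype, since the array labelled CycG2+/+ may not be a second WT. Set against the array labelled G2KO, the WT array differed past 4-fold at 2.18% of probes. Of 461 genes with several probes and any of them past 4-fold, 204 had all probes past 4-fold in the same direction. Another 185 had probes of the same sign that were not all past 4-fold, and 72 had probes of opposite sign.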
